A study of Mus musculus with 18 samples.

Results

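Contacts of the cytokine genes Ifng and Il4 with 5 chromosomal windows around genes of the naive T cell programme were examined in mouse cells. The windows are defined by position, with no threshold on a measured value. Each spans 2 Mb and is named after the gene it was laid out for: Il7r, Ets1, Bach2, Foxo1 or Satb1. That each gene lies inside its window was checked only as far as the cytogenetic band they share. Together they hold 1612 of the 384942 probes of the array and form 5 of the 1273 windows of this width laid over the genome. A further 306 windows of equal width on the same 5 chromosomes served for comparison. None of the 5 chromosomes carries a bait, so every value below concerns contact in trans, between different chromosomes.

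The assay was 4C, which captures what a chosen gene, the bait, touches in the nucleus, and it was run on 18 arrays in 9 groups of 2. Crosslinked chromatin is digested with HindIII and joined by ligation, a digest with Csp6I and another ligation make small circles, and inverse PCR from the bait amplifies its partners. The product was labelled with Cy5 and hybridised against digested genomic DNA labelled with Cy3, and a value is the log2 ratio of Cy5 over Cy3. The Ifng bait was used on 10 arrays, of which 2 each came from naive CD4 T cells, from Th1 cells, from Th2 cells, from Th1 cells of the Stat4 KO (Stat4 knockout) and from 3T3-L1, an established mouse preadipocyte line. The Il4 bait was used on 8 arrays, of which 2 each came from naive CD4 T cells, from Th1 cells, from Th2 cells and from Th2 cells of the Stat6 KO (Stat6 knockout). The labels call the T cells primary and give no strain, age, culture condition or knockout allele. The design text calls the arrays biological replicates and mentions 1 array from pooled replicates, which no label identifies, the cell type tag of the 3T3-L1 arrays is that of T cells, and the protocol names other baits and adherent cells; titles and source names were followed here. The bait bin was taken as the highest 500-kb bin of the bait's chromosome in the mean of its arrays. The highest bin of that chromosome lay within 1 Mb of it on 10 of 10 Ifng arrays and 8 of 8 Il4 arrays. Other chromosomes were not searched, so this does not check which bait an array had.

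Interferon gamma, the product of Ifng, is the signature cytokine of Th1 cells and interleukin 4, the product of Il4, that of Th2 cells. STAT4 relays the interleukin 12 signal that drives Th1 differentiation, and STAT6 relays the interleukin 4 signal that drives Th2 differentiation. The genes of the 5 windows belong to the resting, undifferentiated state of the T cell. Foxo1 is a forkhead transcription factor of quiescent lymphocytes that maintains Il7r and Klf2 expression. Il7r encodes the receptor chain through which interleukin 7 keeps naive T cells alive. Ets1 is a transcription factor of the ETS family required for T cell survival and for normal Th1 responses. Bach2 is a repressor that restrains effector differentiation. Satb1 is a chromatin organiser with roles in thymocyte development and in the Th2 cytokine locus. Interphase chromosomes occupy separate territories, and trans contacts in 4C are spread over many regions with gene-rich, active chromatin often high.

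Positions are given in mm8, the build inferred from the probe positions. The Foxo1 window is chr3:51400000-53400000, in band 3qC, with 315 probes. The Ets1 window is chr9:31400000-33400000, in band 9qA4, with 333 probes, and the Bach2 window is chr4:31300000-33300000, in band 4qA5, with 332 probes. The Il7r window is chr15:8400000-10400000, in band 15qA1, with 312 probes, and the Satb1 window is chr17:50700000-52700000, in band 17qC, with 320 probes. Each gene falls in the same-named band in GRCm38, the build of the gene table used. There Foxo1 lies between the coding genes Maml3 and Cog6, Ets1 between Fli1 and Kirrel3, Bach2 between Map3k7 and Gja10, Il7r between Capsl and Spef2, and Satb1 between Tbc1d5 and Kcnh8. The bands differ in gene content: 3qC holds 3.5 coding genes per Mb and 15qA1 holds 3.8, below the median of 6.33 over 366 bands, while 9qA4 holds 7.2, 4qA5 holds 8.6 and 17qC holds 9.3.

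The promoters of 4 of the 5 genes were in the RefSeq table of GRCm38.p6, and Ets1 was not in it. A pair of them is shown because they carry the letters on which the assay and the study's subject turn: the HindIII site AAGCTT and the Csp6I site GTAC, which decide where a contact can be read, and TTCNNNGAA, the core letters bound by STAT proteins. Each run is the 250 bases before the transcription start, 5′ to 3′ on the gene's strand, with these matches in capitals. All 3 motifs are palindromic, so a match on either strand is the same match, and no match overlaps another.
Bach2: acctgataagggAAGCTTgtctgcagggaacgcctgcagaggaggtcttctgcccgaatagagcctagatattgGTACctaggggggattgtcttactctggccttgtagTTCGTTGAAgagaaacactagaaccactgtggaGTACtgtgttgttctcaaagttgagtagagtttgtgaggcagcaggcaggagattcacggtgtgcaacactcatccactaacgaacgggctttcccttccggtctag
Il7r: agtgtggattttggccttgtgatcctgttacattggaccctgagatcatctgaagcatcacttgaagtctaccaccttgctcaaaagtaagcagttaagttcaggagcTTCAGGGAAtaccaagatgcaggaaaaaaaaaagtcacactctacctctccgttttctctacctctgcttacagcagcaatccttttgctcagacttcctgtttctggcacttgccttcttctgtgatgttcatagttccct

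The Bach2 run lies at chr4:32417185-32417434 on the plus strand and the Il7r run at chr15:9529877-9530126 on the minus strand, both in GRCm38.p6 and so on another build than the windows. In the Bach2 run the HindIII site starts at base 13, the STAT letters at base 111, and Csp6I sites at bases 75 and 144, counted from the 5′ end. In the Il7r run the STAT letters start at base 109 and there is no match to either enzyme. Over all 32851 promoters of the table, 6.22% held the HindIII letters, 31.5% the Csp6I letters and 7.02% the STAT letters. Matches of this kind are thus not rare. The Csp6I letters were also in a promoter entry of Satb1. They are matches of letters and say nothing about binding or cutting. Probes lie 5037 bp apart at the median, and no measurement here resolves a promoter.

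Arrays differed in ways that bear on every comparison. The mean log2 ratio 1 to 2 Mb from the bait bin was unequal, and its effect on the comparisons was not tested. With the Ifng bait it was 2.30 and 2.14 in naive, 1.14 and 0.684 in Th1, 2.48 and 2.75 in Th2 arrays. It was 1.70 and 1.71 in Stat4 knockout and 1.18 and 1.16 in 3T3-L1 arrays. With the Il4 bait it was 1.78 and 1.92 in naive, 1.48 and 2.17 in Th1, 0.947 and 0.770 in Th2 arrays. Stat6 knockout arrays were at 1.46 and 1.43. Values are relative to the array's own trans level, since the median probe outside the bait chromosome was set to 0. The spread of the windows off the bait chromosome, as a median absolute deviation, differed 4.39-fold between Ifng arrays and 3.12-fold between Il4 arrays. It was 0.047 and 0.077 in the naive Ifng arrays but 0.017 and 0.020 in the Th1 Ifng arrays. Trans windows thus lay closer to their array's median window in the Th1 arrays, which does not mean closer to 0. The correlation of replicates over these windows was 0.888 for naive Ifng, 0.804 for Th2 Ifng, 0.176 for Th1 Ifng and 0.463 for naive Il4. Over probes, replicate 2 of Th1 Ifng correlated at 0.406 with replicate 2 of Th2 Il4 and at 0.0708 with its own replicate. The sorted probe values of the 2 arrays of a group agreed within 0.011 for 99.5% of probes or more in 7 groups, but for 42.8% in Th1 Ifng and 10.8% in Th2 Il4, so the deposited arrays were not all brought to a common distribution within groups. Arrays of different baits could also be alike, as replicate 2 of naive Ifng and replicate 2 of naive Il4 were (r = 0.916 over windows), and values that arrays of both baits share cannot be credited to a bait. Where leaving out an array changed a call, this is given beside the result.

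Foxo1 had the highest mean contact of the 5 windows in 8 of the 9 groups and over all arrays together. In Ifng 3T3-L1 it had the lowest, 0.050, against 0.056 for Ets1, 0.061 for Il7r, 0.070 for Bach2 and 0.072 for Satb1. Its mean over the 18 arrays was 0.119, rank 4 of the 78 windows of chromosome 3, where the highest window, 87400000 to 89400000, had 0.166 and the median window 0.010. On single arrays the Foxo1 window lay between -0.0017 and 0.226, with a median of 0.101, and was above 0 on 17 of 18. It was above 95.5% of the equal windows of its chromosome at the median array and among the highest 5 windows on 11 of 18 arrays. It was below the chromosome's middle on 2 arrays: replicate 1 of Ifng 3T3-L1, where 45.5% of equal windows were lower, and replicate 1 of Il4 naive, where 41.6% were. Its band is poor in coding genes, and it was high on chromosome 3 with either bait: the median share of lower windows was 93.5% over the Ifng arrays and 95.5% over the Il4 arrays.

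The other windows stood nearer the middle of their chromosomes. Ets1 and Bach2 were above 0 on 17 of 18 arrays each, with medians of 0.072 and 0.062. The median share of equal windows below them was 61.9% for Ets1 and 66.0% for Bach2, and neither was among the highest 5 of its chromosome on any array. Il7r ranged from -0.044 to 0.119 with a median of 0.033, and 47.0% of equal windows lay below it at the median array. Satb1 ranged from -0.062 to 0.129 with a median of 0.023, and 36.7% of equal windows lay below it. By mean over the 18 arrays the ranks were 20 of 60 for Ets1, 22 of 76 for Bach2, 27 of 51 for Il7r and 28 of 46 for Satb1. Pooled over arrays, which differ in spread, this order put Foxo1 apart, Ets1 and Bach2 somewhat above their chromosomes' middle, and Il7r and Satb1 at or below it.

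**Figure D1:**
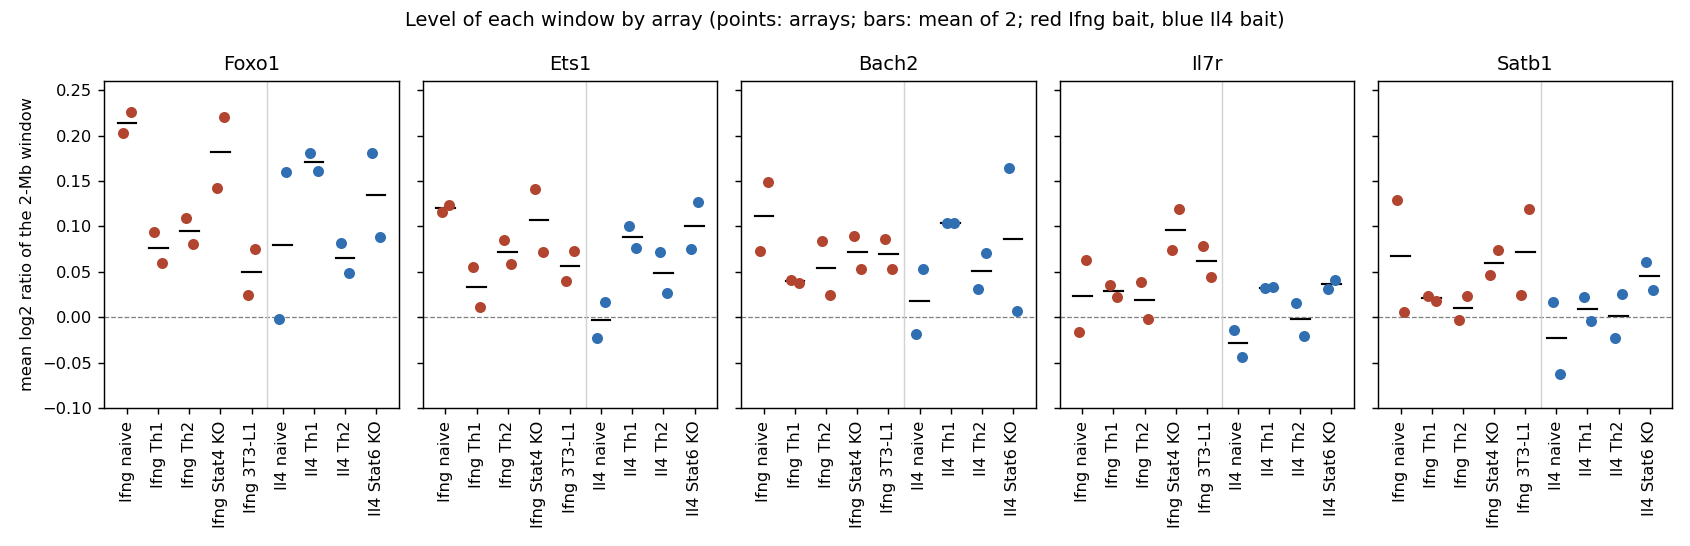
Mean log2 ratio of each 2-Mb window (vertical axis) on every array, by group (horizontal axis), with a bar at the mean of 2 arrays, Ifng arrays in red and Il4 arrays in blue. The naive Ifng arrays of Foxo1, at 0.203 and 0.226, sit above both Th1 and both Th2 Ifng arrays, while the naive and Th1 Ifng arrays of Il7r and of Satb1 overlap.

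**Figure D2:**
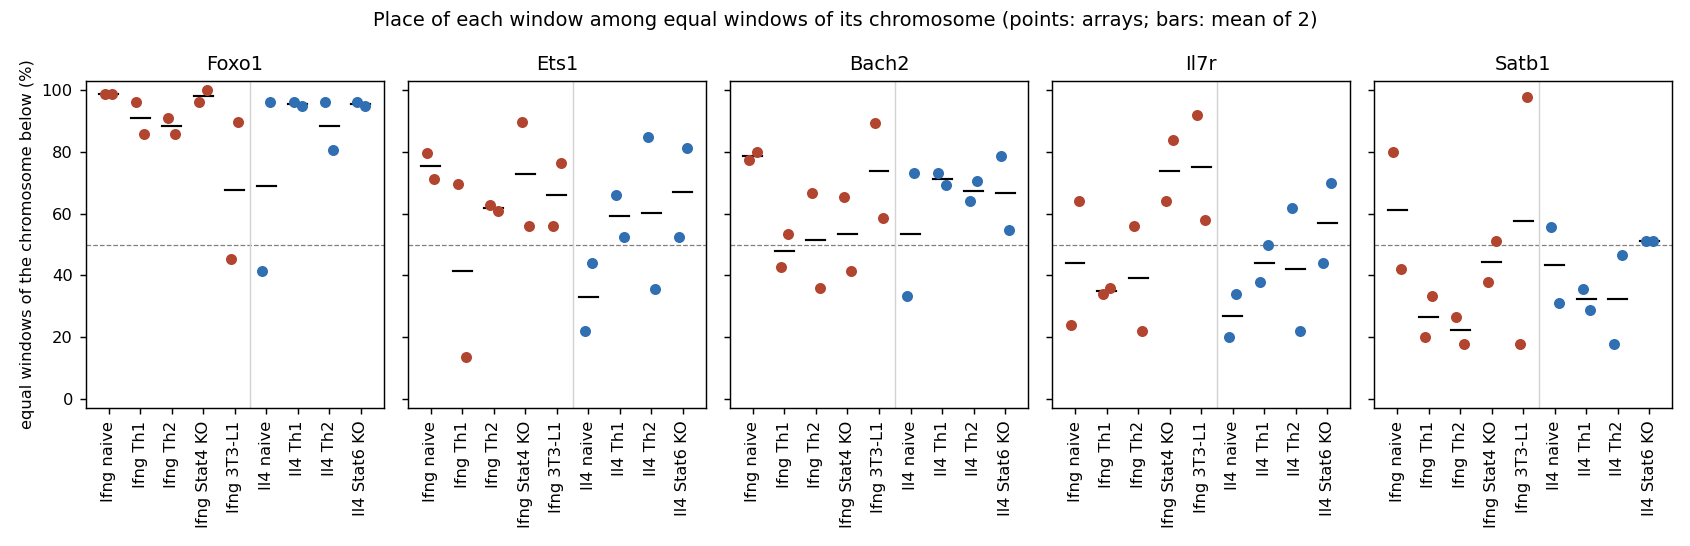
Share of the equal windows of the same chromosome that lie below the named window (vertical axis, percent) on every array, by group, with a bar at the mean of 2 arrays and a dashed line at 50%. Foxo1 sits near the top on nearly all arrays with exceptions at 45.5% and 41.6%, and the other windows scatter around the middle.

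A second readout of the same arrays, the share of a window's probes among the highest 5% of all probes off the bait chromosome, also put Foxo1 first but otherwise ordered the windows differently. At the median array it was 7.14% for Foxo1, 5.94% for Satb1, 5.86% for Ets1, 5.72% for Bach2 and 4.97% for Il7r. In naive Ifng arrays it was 10.3% ± 0.67 (SD, n = 2) for Foxo1, 9.69% ± 1.77 for Satb1, 8.71% for both Ets1 arrays, 8.43% ± 0.85 for Bach2 and 6.09% ± 2.27 for Il7r. By this share Satb1, the lowest window by its median log2 ratio, came next after Foxo1. In Th1 Ifng arrays Bach2 had 4.22% on both arrays and Foxo1 7.62% ± 1.35. These shares were not tested.

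The first comparison asked whether Ifng contacts with the windows differ between Th1 and naive cells. Foxo1 was at 0.203 and 0.226 in naive arrays and at 0.093 and 0.059 in Th1 arrays. Ets1 was at 0.116 and 0.124 in naive arrays and at 0.056 and 0.011 in Th1 arrays. Both windows were lower in both Th1 arrays than in either naive array. In the limma fit Foxo1 fell by 0.14 (SE 0.031; 95% interval -0.21 to -0.070; adjusted p = 0.00683) and Ets1 fell by 0.087 (SE 0.030; -0.15 to -0.022; adjusted p = 0.0353).

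These calls stand against a high background: 525 of 1271 windows passed in this comparison, 41.3% of those tested, with 319 as higher and 206, or 16.2%, as lower; off the bait chromosome 13.2% passed as lower. That split moved with the treatment of the arrays: it was 156 higher and 234 lower with windows centred on their own chromosome, 109 and 160 with the median of probes, and 161 and 5 with arrays divided by their spread. Of the 5 windows, 2 passed, both as lower. On chromosome 3 the Foxo1 value was below those of all 77 equal windows, whose median change was 0.062 and of which 29 passed as higher and 3 as lower. On chromosome 9 only 9 of 59 equal windows had a lower change than Ets1. Set against its own chromosome, Foxo1 went from 0.229 ± 0.035 above the chromosome's median window in naive arrays to 0.036 ± 0.0054 above it in Th1 arrays (SD, n = 2).

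The Foxo1 difference depends on how the unequal spread of the arrays is treated. When each array was divided by its spread, the Foxo1 change became 0.020 (adjusted p = 0.700) and that of Ets1 -0.0063 (adjusted p = 0.912), so neither direction nor call held for Foxo1. Without replicate 2 of naive Ifng the Foxo1 change was -0.13 (adjusted p = 0.0591), without replicate 2 of Th1 it was -0.12 (adjusted p = 0.0436), and the Ets1 call was lost without any 1 of the 4 arrays. The leading digits of the array number define serial series, of which series 31 holds both naive arrays and 1 Th1 array. Within it the differences were -0.12 for Foxo1 and -0.064 for Ets1. With the series as a block the Foxo1 adjusted p was 0.0533 and that of Ets1 0.213. Over 11 other settings the Ets1 call was lost in 8.

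Bach2, Il7r and Satb1 did not pass. Bach2 was at 0.073 and 0.149 in naive arrays and at 0.041 and 0.038 in Th1 arrays, a change of -0.072 (95% interval -0.14 to -0.0034; adjusted p = 0.0822). It passed when each window was centred on its own chromosome, with a change of -0.10 (adjusted p = 0.0251), and without replicate 1 of naive Ifng, with a change of -0.11 (adjusted p = 0.0251), and turned to 0.014 with arrays divided by their spread. Il7r was at -0.016 and 0.063 in naive and at 0.036 and 0.022 in Th1 arrays, a change of 0.0057 (-0.062 to 0.073; adjusted p = 0.898). Satb1 was at 0.129 and 0.0062 in naive and at 0.023 and 0.018 in Th1 arrays, a change of -0.047 (-0.13 to 0.037; adjusted p = 0.344). The naive arrays of Il7r and of Satb1 enclosed their Th1 arrays.

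**Figure D3:**
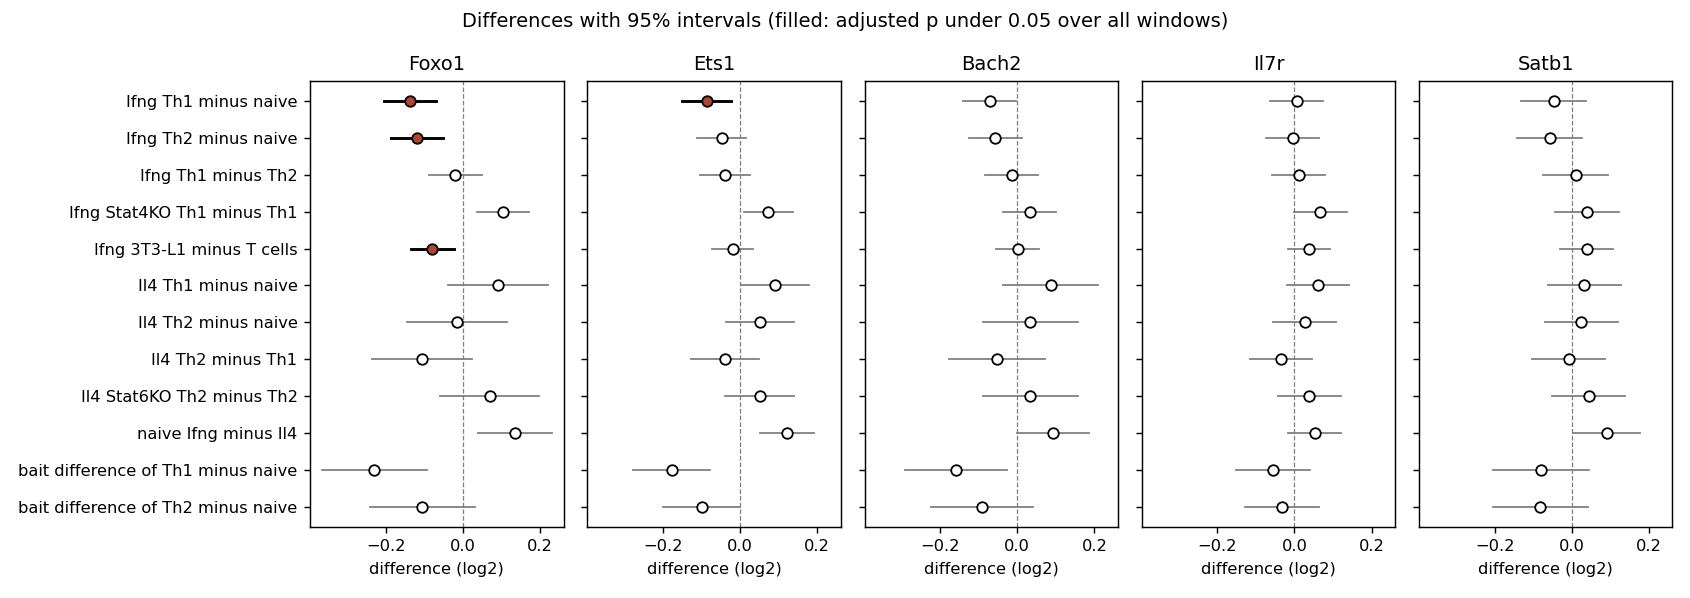
Difference in log2 ratio with its 95% interval (horizontal axis) for each comparison (rows) and window (panels); filled points passed an adjusted p of 0.05 over all windows tested. Filled points are Foxo1 in Th1 minus naive (-0.14), Th2 minus naive (-0.12) and 3T3-L1 minus T cells (-0.079), and Ets1 in Th1 minus naive (-0.087).

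Within the windows the difference between Th1 and naive cells was uneven. Of the 20 segments of 500 kb, 5 passed, all as lower, against 11.8% of the 5000 segments tested over the genome and 7.68% as lower. The segment 52400000 to 52900000 of the Foxo1 window was at 0.415 and 0.303 in naive arrays and at 0.093 and 0.034 in Th1 arrays, a change of -0.30 (SE 0.056; adjusted p = 0.00240). The segment 32800000 to 33300000 of the Bach2 window was at 0.273 and 0.257 in naive arrays and at 0.0098 and -0.023 in Th1 arrays, a change of -0.27 (SE 0.047; adjusted p = 0.00112). Groups did not overlap in either segment, and both calls held without any 1 of the 4 arrays. With arrays divided by their spread both kept their direction but not their call, at -0.11 (adjusted p = 0.401) and -0.18 (adjusted p = 0.119). With the median of probes they were at -0.10 (adjusted p = 0.0997) and -0.089 (adjusted p = 0.124), and with the serial series as a block the Foxo1 segment had an adjusted p of 0.0560.

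The parts of the Bach2 window differed. Its segments from 31300000 to 32300000 were at -0.092 and -0.043 in the mean of the naive arrays, below 0, and its segments from 32300000 on were at 0.306 and 0.265. The naive arrays of the segment 32300000 to 32800000 lay apart, at 0.194 and 0.419, and that segment did not pass. In Th1 arrays the 4 segments were at 0.044, 0.015, 0.101 and -0.0066. The other called segments were the start of the Foxo1 window, 51400000 to 51900000 (-0.15; adjusted p = 0.0449), and the middle of the Ets1 window, 31900000 to 32400000 (-0.17; adjusted p = 0.0378) and 32400000 to 32900000 (-0.18; adjusted p = 0.0238). The start of the Foxo1 window turned to 0.048 when arrays were divided by their spread. These 3 calls were lost when single arrays were left out, the Foxo1 start and the later Ets1 segment in 3 of 4 cases each and the earlier Ets1 segment in 4 of 4. Over 10 other settings each Ets1 call was lost in 7, and the Foxo1 call in 7 besides the 1 that turned direction.

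**Figure D4:**
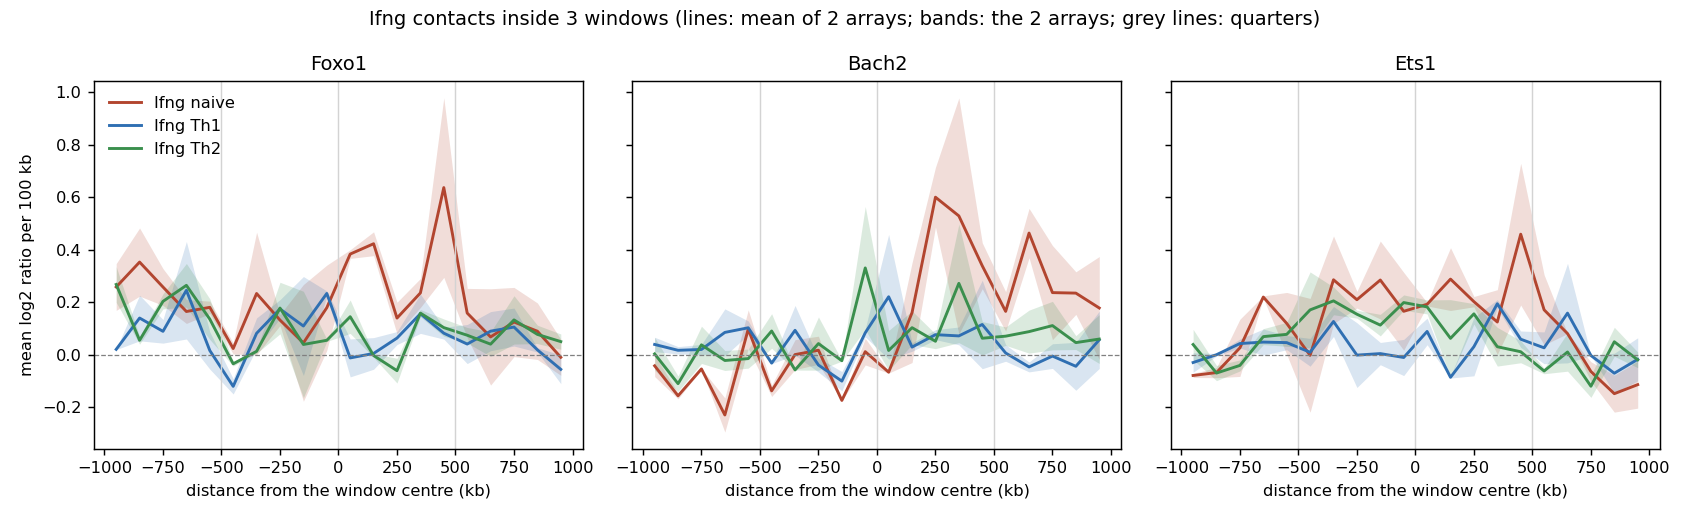
Mean log2 ratio in steps of 100 kb (vertical axis) against distance from the centre of the window in kb (horizontal axis) for Ifng naive, Th1 and Th2 arrays; lines are means of 2 arrays, shaded bands span the 2 arrays and grey lines divide the 500-kb segments. Naive contact of Foxo1 rises to 0.637 in the step centred 450 kb past the middle, with arrays at 0.295 and 0.978, and that of Bach2 to 0.600 in the step centred 250 kb past it, while Th1 and Th2 lines stay lower there. The Bach2 step lies in the segment 32300000 to 32800000, which did not pass.

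Ifng contacts in Th2 cells were compared with naive cells next; this comparison shares its naive arrays with the one above. Foxo1 was at 0.110 and 0.081 in Th2 arrays, below both naive arrays, a change of -0.12 (SE 0.031; 95% interval -0.19 to -0.051; adjusted p = 0.0341). It was the 1 window of the 5 that passed, against 8.73% of all windows, 5.35% as lower, and 2.98% as lower off the bait chromosome. On chromosome 3, 1 of 77 equal windows had a lower change. The call was lost without replicate 2 of naive Ifng (adjusted p = 0.172) and without replicate 1 or 2 of Th2 (0.0656 and 0.220), and with arrays divided by their spread the change was -0.045 (adjusted p = 0.623). With the serial series as a block it was -0.085 (adjusted p = 0.444). The call was lost in 7 of 11 other settings.

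The other windows did not pass in Th2 cells. Ets1 was at 0.085 and 0.059, below both naive arrays, a change of -0.048 (95% interval -0.11 to 0.017; adjusted p = 0.281). Bach2 was at 0.084 and 0.024 (-0.057; adjusted p = 0.240), Satb1 at -0.0027 and 0.024 (-0.057; adjusted p = 0.319) and Il7r at 0.039 and -0.0020 (-0.0050; adjusted p = 0.925). Among segments, the same stretches of Foxo1 and Bach2 passed as in Th1 cells, 2 of 20 against 5.00% of all segments and 3.44% as lower: the Foxo1 segment 52400000 to 52900000 changed by -0.29 (adjusted p = 0.00363) and the Bach2 segment 32800000 to 33300000 by -0.19 (adjusted p = 0.0268). The Foxo1 segment was at 0.048 and 0.096 in Th2 arrays, and its call was lost without replicate 1 of naive Ifng (adjusted p = 0.0502), with arrays divided by their spread (0.822), with the median of probes (0.621) and with the serial block (0.519). The Bach2 segment was at 0.029 and 0.127. Its call was lost in 7 of 10 other settings, among them 3 of 4 cases when an array was left out.

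Th1 and Th2 cells were compared directly with the Ifng bait. None of the 5 windows passed, against 3.07% of all windows and 1.32% of those off the bait chromosome. The changes, Th1 minus Th2, ranged from -0.039 for Ets1 to 0.011 for Il7r, with adjusted p from 0.435 to 0.885, and that of Foxo1 was -0.019 (95% interval -0.086 to 0.049). The intervals leave room for differences of some size in either direction.

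Stat4 knockout Th1 cells were compared with Th1 cells to ask whether loss of STAT4 alters these contacts. Foxo1 was at 0.142 and 0.220 in the knockout arrays against 0.093 and 0.059 in Th1 arrays, and on replicate 2 of the knockout it was the highest of the 78 windows of chromosome 3. The change was 0.10 (95% interval 0.037 to 0.17; adjusted p = 0.0805) and did not pass. Ets1, at 0.141 and 0.072, changed by 0.074 (adjusted p = 0.162), Il7r, at 0.074 and 0.119, by 0.067 (adjusted p = 0.198), Satb1 by 0.039 (adjusted p = 0.545) and Bach2 by 0.032 (adjusted p = 0.544). All 5 changes were above 0, as was the median change over all windows, 0.030. The groups overlapped in none of the 5 windows, but how often this held over all windows was not counted. Of the 5, 0 passed, against 4.48% of all windows and 2.23% of those off the bait chromosome. The direction of Bach2 turned under 3 other treatments of the arrays and that of Satb1 under 1. Without replicate 1 of the knockout the Foxo1 change was 0.14 (adjusted p = 0.0198). Both arrays lie in serial series 41, which holds only knockout arrays, so knockout and series cannot be told apart.

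In the order of mean levels with the Ifng bait, Foxo1 stood at 0.214 ± 0.016 in naive cells, 0.181 ± 0.055 in Stat4 knockout Th1 cells, 0.095 ± 0.020 in Th2 cells, 0.076 ± 0.024 in Th1 cells and 0.050 ± 0.036 in 3T3-L1 (SD, n = 2). Neighbours in this order overlapped in their arrays except the knockout and Th2 groups. Ets1 followed the order naive (0.120 ± 0.0059), knockout (0.107 ± 0.049), Th2 (0.072 ± 0.019), 3T3-L1 (0.056 ± 0.023) and Th1 (0.033 ± 0.032) and all neighbours in that order overlapped. Il7r was highest in the knockout (0.096 ± 0.031) and 3T3-L1 (0.061 ± 0.024) and between 0.018 and 0.029 in naive, Th1 and Th2 means.

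The 3T3-L1 line, which is no T cell, was compared with the mean of naive, Th1 and Th2 cells. Foxo1 was at 0.025 and 0.075 in 3T3-L1, a change of -0.079 (SE 0.026; 95% interval -0.13 to -0.023; adjusted p = 0.0432), and 3 of 77 equal windows of chromosome 3 had a lower change. It was the 1 of 5 windows that passed, against 22.1% of all windows, 10.9% as lower, and 7.94% as lower off the bait chromosome. Its call was lost in 11 of 14 other settings, among them 7 of 8 cases when an array was left out. The 3T3-L1 arrays overlapped the T cell arrays, since Th1 cells were also low. The Foxo1 segment 52400000 to 52900000 passed at -0.17 (adjusted p = 0.0228), 1 of 20 segments against 12.1% of all and 5.52% as lower; this call was lost without either 3T3-L1 array (adjusted p = 0.319 and 0.0799), with the median of probes and with arrays divided by their spread. The changes of Il7r (0.038), Satb1 (0.039), Bach2 (0.0019) and Ets1 (-0.019) did not pass, with adjusted p from 0.320 to 0.971. The 3T3-L1 arrays lie in serial series 26 and 29, which hold no T cell array, so line and series cannot be told apart.

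With the Il4 bait no window of the 5 passed in any comparison. Foxo1 was at -0.0017 and 0.160 in naive arrays, at 0.181 and 0.161 in Th1, at 0.081 and 0.049 in Th2 and at 0.181 and 0.088 in Stat6 knockout Th2 arrays. Its naive arrays enclosed those of Th2 and differed from each other by more than any group means did. In Th1 minus naive its change was 0.092 (95% interval -0.038 to 0.22; adjusted p = 0.656), and this was 0.011 without replicate 1 of naive Il4 and 0.17 without replicate 2. All 5 changes of that comparison were above 0, from 0.032 for Satb1 to 0.092 for Foxo1, where the median over all windows was 0.042.

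In Th2 minus naive with the Il4 bait the changes ran from -0.014 for Foxo1 to 0.052 for Ets1 (adjusted p = 0.999 for each). Of all windows 1.97% passed, all on the bait chromosome, and 0 of the 1213 windows off it did. In Th2 minus Th1 all 5 changes were below 0, from -0.11 for Foxo1 (95% interval -0.23 to 0.024; adjusted p = 0.814) to -0.0077 for Satb1. The median change over all windows was also below 0, at -0.030. In Stat6 knockout Th2 minus Th2 all 5 were above 0, from 0.034 for Bach2 to 0.070 for Foxo1 (95% interval -0.060 to 0.20; adjusted p = 0.655). Here the median over all windows was 0.040. Bach2 ranged from 0.0072 to 0.164 between the knockout arrays alone. In limma 0 windows of the genome passed in Th1 minus naive, Th2 minus Th1 and Stat6 knockout minus Th2, where 83, 84 and 117 had an unadjusted p under 0.05. Both Stat6 knockout arrays also lie in serial series 41, and knockout and series cannot be told apart.

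Ifng and Il4 contacts were set against each other in naive cells. All 5 windows were higher with the Ifng bait, by 0.13 for Foxo1 (95% interval 0.038 to 0.23; adjusted p = 0.360), 0.12 for Ets1 (0.053 to 0.19; adjusted p = 0.115), 0.094 for Bach2 (adjusted p = 0.869), 0.090 for Satb1 (adjusted p = 0.842) and 0.052 for Il7r (adjusted p = 0.986). None passed, against 0.522% of all windows. Without replicate 2 of naive Il4 the Foxo1 difference was 0.22 (adjusted p = 0.0108). The Foxo1 and Ets1 values were above those of all 77 and all 59 equal windows of their chromosomes. The Ets1 segment 32400000 to 32900000 passed, 1 of 20 against 0.399% of all segments and 0.377% as higher: it was at 0.200 and 0.280 with Ifng and at -0.056 and 0.057 with Il4, a difference of 0.24 (adjusted p = 0.0492). This call was lost in 8 of 10 other settings, among them 3 of 4 cases when an array was left out.

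The difference between the baits in their change from naive to Th1 cells was -0.23 for Foxo1 (95% interval -0.37 to -0.093) and -0.18 for Ets1 (-0.28 to -0.079), each with an adjusted p of 0.0985, and -0.16 for Bach2 (adjusted p = 0.166). None of the 5 passed, against 0.870% of all windows, so the Ifng change of Foxo1 was not shown to differ from its Il4 change. These values turn on the naive Il4 arrays, which differ from each other. Without replicate 2 of naive Il4 Foxo1 (-0.31; adjusted p = 0.00155), Ets1 (-0.20; adjusted p = 0.00944) and Bach2 (-0.19; adjusted p = 0.0315) passed, where 409 windows of the genome did. Without replicate 1 the Foxo1 difference was -0.15 (adjusted p = 0.464). The inner 1 Mb of the Ets1 window passed at -0.31 (adjusted p = 0.0232). For the change from naive to Th2 cells the differences ran from -0.10 for Foxo1 to -0.031 for Il7r (adjusted p = 0.997 for each), where 0 windows of the genome passed in limma and 27 had an unadjusted p under 0.05.

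The windows were set beside a wider list of 20 genes of naive and quiescent T cells, which includes these 5. By cytogenetic band 18 of them could be placed, in 17 bands. A band holds many genes, and its value is not that of the gene. In Ifng Th1 minus naive 2 of the 17 bands passed as higher and 3 as lower, against 39.9% of all 401 bands, 25.7% as higher and 14.2% as lower, and the list's median change was -0.0097 against 0.020 over all bands. Off chromosomes 10 and 11 there was no such gap: the median was 0.023 over the 14 listed bands and 0.025 over 366 bands. There 2 of the 14 listed bands passed as higher and 1 as lower, against 100 and 40 of the 366. The bands of the 5 windows did not pass. Their changes in Ifng Th1 minus naive ran from -0.047 for 17qC (limma, adjusted p = 0.0664) to 0.031 for 3qC (adjusted p = 0.108). Whether a window differs from the band around it was not tested.

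The called band that moved most off the bait chromosomes was 16qC4, which holds Runx1, a transcription factor of T cell development and Th1 differentiation. It was at 0.264 and 0.307 in naive Ifng arrays and at 0.036 and 0.050 in Th1 arrays, a change of -0.24 (SE 0.019; adjusted p = 4.95e-05). The groups lay far apart, and this call held in all 10 other settings, including arrays divided by their spread (-0.094; adjusted p = 0.0260). It was at 0.121 and 0.097 in Th2 arrays (-0.18; adjusted p = 0.000575; 8.98% of bands passed, 4.99% as lower), a call lost in 3 of 10 other settings, and at 0.142 and 0.165 in Stat4 knockout arrays, above Th1 cells by 0.11 (adjusted p = 0.0334; 1.25% of bands passed). That knockout call was lost in 8 of 9 other settings. In 3T3-L1 it was at 0.074 and 0.081, a change of -0.069 from the T cell mean (adjusted p = 0.0179; 18.2% of bands passed, 6.48% as lower), a call lost in 4 of 13 other settings, among them leaving out either 3T3-L1 array. Its change from naive to Th1 cells differed between the baits by -0.24 (adjusted p = 0.0232), 1 of 14 listed bands against 0.546% of 366. This call on the bait difference was lost in 11 of 14 other settings.

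The remaining called bands of the list moved in both directions. In Th1 minus naive with the Ifng bait 1qE2.1, which holds the survival gene Bcl2, rose by 0.089 (adjusted p = 0.0135) and 3qG1, which holds the egress receptor S1pr1, rose by 0.064 (adjusted p = 0.0214), from levels below 0 in naive arrays. The band 11qB1.3, which holds the naive and memory factor Tcf7, fell by 0.082 (adjusted p = 0.0123). Each of these 3 calls was lost without replicate 1 of Th1 and without replicate 2 of naive Ifng (adjusted p from 0.0898 to 0.130). Centring on the own chromosome took 1qE2.1 to 0.043 and 3qG1 to 0.0099, and division by spread took 11qB1.3 to -0.0028, none of which passed. On the bait chromosomes 10qA3, which holds Myb, fell by 1.09 in Th1 and by 1.16 in Th2 cells with the Ifng bait (calls lost only with arrays divided by their spread, at adjusted p of 0.0555 and 0.249). In 3T3-L1 the same band changed by -0.49 from the T cell mean (limma, adjusted p = 7.89e-06; 18.2% of bands passed, 6.48% as lower), a call kept in 13 of 13 other settings. The band 11qD, which holds Ccr7 and Igfbp4, fell by 0.53 in Th2 cells with the Il4 bait (adjusted p = 0.0254; 1.75% of bands passed). That last value turned to 0.023 with centring on the own chromosome, and its call was lost in 4 of 4 cases when an array was left out.

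The levels of the windows over the 18 arrays were partly shared. Pearson's r between Foxo1 and Bach2 was 0.628 and between Foxo1 and Ets1 0.615, and the other pairs ranged from 0.087 for Bach2 and Satb1 to 0.449 for Il7r and Ets1. The window most like Foxo1 on another chromosome, bait chromosomes aside, was chr18:38000000-40000000 (r = 0.881), followed by chr6:98000000-100000000 (r = 0.829). The median r of Foxo1 with 1071 windows was 0.081. The window chr6:98000000-100000000 was also among the 2 most like Ets1 (r = 0.740), beside chr13:20000000-22000000 (r = 0.810). Bach2 was most like chr16:10000000-12000000 (r = 0.835) and chr1:34000000-36000000 (r = 0.799), Il7r most like chr5:42000000-44000000 (r = 0.813) and chrX:154000000-156000000 (r = 0.801), and Satb1 most like chr1:158000000-160000000 (r = 0.662) and chr8:84000000-86000000 (r = 0.650). All points share arrays, and arrays of wide spread weigh most in these values, which are descriptions. Across 366 bands the correlation of contact with coding genes per Mb ran from -0.063 in replicate 1 of Th1 Ifng to 0.689 in replicate 1 of Stat6 knockout, and 96.1% of the equal windows of chromosome 3 lay below Foxo1 on either of these arrays. Genes were counted by band and not by window, and whether gene content bears on the Foxo1 level was not tested.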

How the data were processed

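The authors deposited 1 file per array with a log2 ratio of Cy5 (4C DNA) over Cy3 (digested genomic DNA) for each probe; base 2 was assumed from the format and the labels' protocols. Values come in steps of 0.005, and their normalization and build are not given in the sources used here. The build was taken as mm8 because 0 of 21 chromosomes held a probe past its end there, against 11 in mm7, 5 in mm9 and 8 in mm10. Gene names, bands and promoters came from tables of GRCm38.p6, and no coordinate was converted.

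For every array the median over probes outside the bait chromosome was subtracted, and probes were averaged in windows of 2 Mb (at least 100 probes), segments of 500 kb (at least 20) and cytogenetic bands. Windows within 1 Mb of a bait were left out. The tests between groups used limma 3.58.1 (R 4.3.3), two-sided, over all arrays of a bait (or all 18 for bait differences), with Benjamini-Hochberg adjustment over all windows tested and a threshold of 0.05. Intervals are 95%. The number of arrays, 2 a group, limits the precision. Bands came from circlize 0.4.16, and other steps used Python 3.11.15 with numpy 2.4.6, pandas 2.3.3 and matplotlib 3.10.9.

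Named were the 5 windows in every comparison, the 2 windows most like each, the highest window of each chromosome, and listed genes whose band passed. The windows and lists were chosen with earlier results of these data known. Alternatives were the inner 1 Mb, the median of probes, centring on the own chromosome, quantile normalization, division by each array's spread, blocks for replicate number and serial series, and each array left out. For segments and bands they were added after seeing the data.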

Additional observations from a re-analysis of the deposited data

Results flagged for a closer look

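The change from naive to Th1 cells in band 16qC4, which holds Runx1, differed between the baits by the test of the difference itself, at -0.24 (SE 0.044; limma, adjusted p = 0.0232). With the Ifng bait the band was at 0.264 and 0.307 in naive and 0.036 and 0.050 in Th1 arrays, and with the Il4 bait at 0.084 and 0.202 in naive and 0.135 and 0.140 in Th1 arrays. Over the 8 arrays left out in turn the difference ran from -0.30 to -0.18 and the call was kept in 2 cases. With arrays divided by their spread it was -0.088 (adjusted p = 0.195). Over 14 other settings in all the call was lost in 11. It was 1 of 14 listed bands tested, where 0.546% of 366 bands passed.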

How the results depend on the processing

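The 5 windows gave 60 changes, most of them near 0, and the cause of each shift below was not tested. Changes that turned direction were these. With centring on the own chromosome, 3T3-L1 minus T cells Bach2 was -0.0093, Ifng Th1 minus Th2 Il7r -0.00092, Ifng Th1 minus naive Il7r -0.011, Il4 Th1 minus naive Satb1 -0.0097, Il4 Th2 minus Th1 Il7r 0.00033 and Satb1 0.035, and band 11qD in Il4 Th2 minus naive 0.023. With the inner 1 Mb, 3T3-L1 Bach2 was -0.034, Ifng Th1 minus Th2 Foxo1 0.018 and Satb1 -0.024, Stat6 knockout Satb1 -0.011 and Il4 Th2 minus Th1 Satb1 0.024. With the median of probes, 3T3-L1 Ets1 was 0.0058, Stat4 knockout Bach2 -0.018 and Satb1 -0.0050, Ifng Th1 minus naive Satb1 0.020, Ifng Th2 minus naive Bach2 0.011 and Il7r 0.018, Stat6 knockout Bach2 -0.046, Il4 Th1 minus naive Satb1 -0.018, Il4 Th2 minus Th1 Bach2 0.0050 and Satb1 0.018, Il4 Th2 minus naive Il7r -0.0025, the bait difference of Th1 Il7r 0.024 and Satb1 0.0375, that of Th2 Foxo1 0.0075 and Il7r 0.020, and naive Ifng minus Il4 Il7r and Satb1 -0.0025 each. With quantile normalization, Stat4 knockout Bach2 was -0.0044, Ifng Th1 minus Th2 Bach2 0.0027 and Foxo1 0.0080, Stat6 knockout Bach2 -0.028, Il7r -0.0049 and Satb1 -0.0050, Il4 Th1 minus naive Satb1 -0.0099, Il4 Th2 minus Th1 Ets1 0.0093 and Satb1 0.037, and Il4 Th2 minus naive Foxo1 0.012. With arrays divided by their spread, the first Foxo1 segment in Th1 minus naive was 0.048, 3T3-L1 Ets1 0.0055, Stat4 knockout Bach2 -0.0100, Ifng Th1 minus Th2 Bach2 0.032, Ets1 0.0021 and Foxo1 0.065, Ifng Th1 minus naive Bach2 0.014 and Foxo1 0.020, Ifng Th2 minus naive Il7r 0.0052, Stat6 knockout Bach2 -0.0055 and Ets1 -0.0026, Il4 Th2 minus Th1 Ets1 0.0037, Il4 Th2 minus naive Foxo1 0.060 and Satb1 -0.0031, and the bait difference of Th1 Il7r 0.0073. With the serial series as a block, Ifng Th2 minus naive Il7r was 0.0083 and Il4 Th2 minus Th1 Satb1 0.024.

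Counts of windows that passed moved by over 1.5 times as follows. Ifng Th1 minus naive, 525, gave 321 (inner 1 Mb), 269 (median), 288 (quantile), 166 (spread) and 289 (serial). Ifng Th2 minus naive, 111 (43 higher, 68 lower), gave 17 (1 and 16, median), 59 (12 and 47, quantile), 0 (spread) and 27 (serial), and was 29 and 91 with own-chromosome centring. Ifng Th1 minus Th2, 39 (1 and 38), gave 60 (25 and 35, own chromosome), 175 (61 and 114, median), 20 (4 and 16, quantile), 0 (spread) and 23 (serial). Stat4 knockout minus Th1, 57 (57 and 0), gave 21 (7 and 14, own chromosome), 27 (inner), 0 (median), 1 (0 and 1, quantile) and 0 (spread). 3T3-L1 minus T cells, 281 (142 and 139), gave 182 (inner), 114 (median) and 159 (116 and 43, spread). Il4 Th1 minus naive, 0, gave 2 (own chromosome), 3 (inner) and 5 (quantile). Il4 Th2 minus naive, 25 (0 and 25), gave 3 (median) and 0 (spread), and 18 and 11 with own-chromosome centring. The bait difference of Th1, 10, gave 6 (own chromosome), 0 (median), 2 (quantile) and 0 (spread), that of Th2, 0, gave 3 (inner), and naive Ifng minus Il4, 6, gave 0 (median), 3 (quantile) and 0 (spread).

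With each array left out, counts ran from 104 to 571 in Ifng Th1 minus naive (104 without replicate 2 of naive, 113 without replicate 1 of Th1), 58 to 138 in Ifng Th2 minus naive, 19 to 28 in Ifng Th1 minus Th2, 9 to 92 in Stat4 knockout, 74 to 321 in 3T3-L1, 0 to 30 in Il4 Th1 minus naive, 0 to 37 in Il4 Th2 minus Th1, 8 to 26 in Il4 Th2 minus naive, 2 to 409 in the bait difference of Th1, 0 to 5 in that of Th2 and 4 to 22 in naive Ifng minus Il4. Ranges that crossed 0 were 3T3-L1 Bach2 -0.015 to 0.018 and Satb1 -0.0083 to 0.086, Ifng Th1 minus Th2 Bach2 -0.044 to 0.015, Il7r -0.0098 to 0.031 and Satb1 -0.0031 to 0.023, Ifng Th1 minus naive Il7r -0.034 to 0.045 and Satb1 -0.11 to 0.014, Ifng Th2 minus naive Il7r -0.045 to 0.035 and Satb1 -0.12 to 0.0043, Stat6 knockout Bach2 -0.044 to 0.11, Il4 Th1 minus naive Satb1 -0.0075 to 0.072, Il4 Th2 minus Th1 Satb1 -0.032 to 0.016, Il4 Th2 minus naive Bach2 -0.0016 to 0.069, Foxo1 -0.095 to 0.067 and Satb1 -0.015 to 0.064, and the bait difference of Th2 Il7r -0.071 to 0.0081.

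The replicate differences of 7 of 16 pairs of groups correlated over 0.1 (range -0.494 to 0.511). Arrays differ in spread, so this cannot decide whether replicate numbers pair the arrays. With the replicate block 500 windows passed in Ifng Th1 minus naive and 96 in Ifng Th2 minus naive, and Foxo1 had an adjusted p of 0.0094 in the former and of 0.0524 in 3T3-L1 minus T cells.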
